A study of Gallus gallus with 10 samples.

Results

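Control pools 4 and 5 are a pair of the 5 RNA-seq pools of chick cranial neural folds that received the control morpholino, and they held far more RNA of the immediate early genes FOS and JUN than control pools 1 to 3. They were picked from their measured levels of FOS and JUN, after the values had been seen. For that reason all gene differences between pools 4 and 5 and pools 1 to 3 are descriptions, given without a test. The series holds 10 pools in all, 5 given the control morpholino (labelled mmMO) and 5 given the NSD3 morpholino (NSD3 MO). Of 19168 genes in the deposited table, 11969 averaged 1 FPKM or more in the 5 control pools and are described here. FPKM is fragments per kilobase of transcript, scaled to library size.

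Cranial neural folds are the raised edges of the neural plate in the head, and neural crest cells arise in them between future brain and surface ectoderm. A morpholino is an antisense oligomer that blocks translation or splicing of its target RNA, and NSD3 encodes a histone methyltransferase. In both groups, embryos of Hamburger-Hamilton stage 4 to 5 were electroporated on both sides with 0.5 mM morpholino together with 300 ng/µL of the carrier plasmid pCS2+myc, and folds were dissected at 5 to 7 somites. Each pool combined the folds of 12 embryos, so a level is an average over embryos and over the cell types of the explant. The labels state a pair of egg suppliers and up to 1 hour on ice in saline before lysis, and tie neither to a pool number. Whether pools 4 and 5 differed in supplier, day or time on ice cannot be told apart from the pools themselves.

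Immediate early genes are transcribed within minutes of a stimulus without new protein synthesis. FOS and JUN proteins pair to form AP-1, a transcription factor that many kinds of stress, growth factor and injury induce. Low oxygen stabilises HIF factors, which raise genes for glucose uptake, glycolysis and blood vessel growth. The integrated stress response acts through ATF4 and raises genes for amino acid supply and redox control. In the neural folds, transcription factors of the neural plate border such as MSX1 and PAX3 come first, and crest specifiers such as FOXD3 and SOX10 follow.

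NSD3, the targeted transcript, stood at 20.8, 21.5 and 21.3 FPKM in control pools 1 to 3, at 24.7 in pool 4 and at 25.9 in pool 5. It stood at 17.3, 15.9, 18.4, 19.5 and 18.4 FPKM in NSD3 morpholino pools 1 to 5. All 5 NSD3 morpholino pools therefore lay below all 5 control pools, with the widest gap to control pools 4 and 5. The log2 fold change was -0.34 (SE 0.0838, n = 5 and 5, limma, adjusted p = 0.055) with all pools and -0.24 (n = 5 and 3, limma, adjusted p = 0.117) without control pools 4 and 5. It was -0.49 (n = 5 and 2, limma, adjusted p = 0.0069) with control pools 4 and 5 as the only controls. That pair was picked after the values had been seen, so the last fit is a description.

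Depth was similar over the control pools. Relative depth, the factor by which each pool had been scaled, read from the steps of low FPKM values, was 1.011, 0.996 and 0.977 in pools 1 to 3, 1.055 in pool 4 and 1.018 in pool 5. Mitochondrially encoded RNA made up 21.2, 23.5 and 21.0% of all FPKM in pools 1 to 3, 20.1% in pool 4 and 18.6% in pool 5. Pools 4 and 5 thus had the highest relative depth and the lowest mitochondrial share of the 5, and the part of either in the differences below was not tested. Markers of the labelled tissue were present in every control pool, with FOXD3 at 291 FPKM or more, SOX2 at 67.2 or more and PAX7 at 25.4 or more. No pair of control pools had identical FPKM in more than 0.125% of genes, so all 5 were counted as separate samples.

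Over all genes, pools 4 and 5 resembled each other and stood away from every other pool. The distance used is the median over genes of the absolute difference in log2(FPKM + 0.5). It was 0.148 between pools 4 and 5 and 0.137 to 0.185 within pools 1 to 3. Between pools 4 or 5 and pools 1 to 3 it was 0.213 to 0.322. Control pools 1 to 3 lay 0.145 to 0.226 from the NSD3 morpholino pools. The NSD3 morpholino pool nearest to control pools 4 and 5 was number 5, at 0.213 from pool 4 and 0.220 from pool 5.

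**Figure D1:**
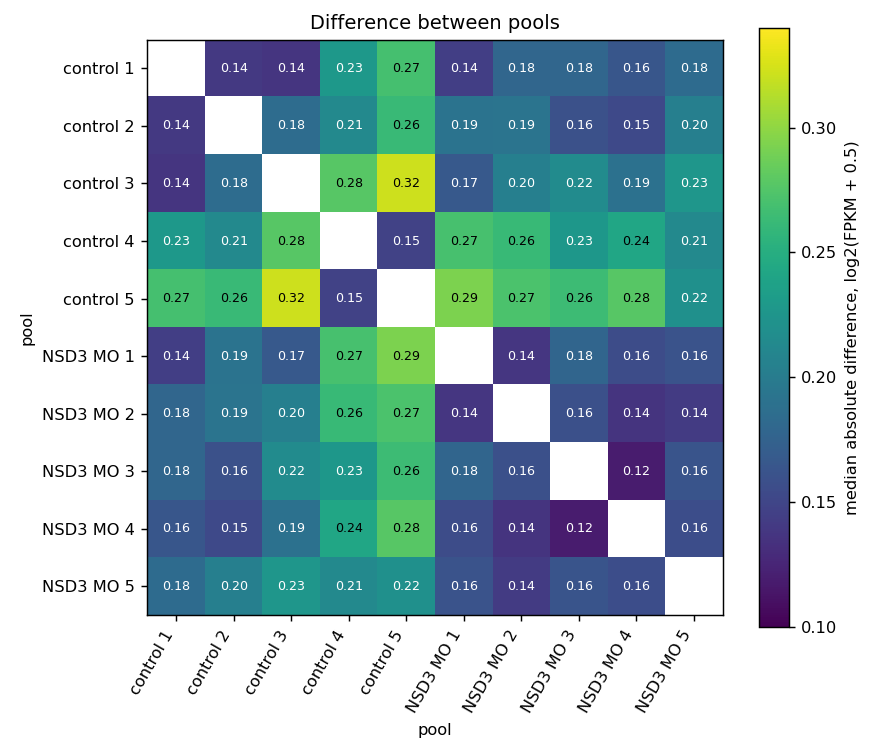
Median absolute difference in log2(FPKM + 0.5) over 11969 genes for each pair of pools, with both axes listing the 5 control and the 5 NSD3 morpholino (NSD3 MO) pools. Control pools 4 and 5 differ from each other by 0.148 and from control pools 1 to 3 by 0.213 to 0.322.

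Both pools lay above all of pools 1 to 3 for 3182 genes (26.6% of the genes described) and below all of them for 3307 (27.6%). A gene is called set apart here when the pools did not overlap and the ratio of mean FPKM, pools 4 and 5 over pools 1 to 3, also reached 1.5-fold. By that measure 784 genes were higher (6.55%) and 860 lower (7.19%), and at 2-fold 233 were higher and 168 lower. Of these, 95 higher genes averaged under 1 FPKM in pools 1 to 3 and 66 lower genes in pools 4 and 5, so that they passed the filter only through their high group and had to differ. The median log2 difference over all genes was 0.01, so neither direction was shifted as a whole. Since the contrast itself chose the pools, these percentages serve as background for the gene lists, and no list count is evidence of anything beyond these 5 pools. At the threshold, CGN and DNAJB2 stayed just outside with ratios of 1.4983 and 1.4994, while FBXO31 and SSTR4 were just inside at 1.5. On the lower side PHTF2 was just inside at 0.66632, and LYRM4 and CHAF1B were just outside at 0.66667 and 0.66683.

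FOS and JUN, the AP-1 genes that chose the pools, are given first. FOS, the AP-1 subunit whose RNA is induced fastest, stood at 2.95, 2.21 and 2.30 FPKM in pools 1 to 3, 22.2 in pool 4 and 63.5 in pool 5, a ratio of means of 17.3. JUN, its main partner, stood at 18.7, 16.9 and 13.3 FPKM in pools 1 to 3, 136 in pool 4 and 170 in pool 5, a ratio of 9.35. In both genes the lowest of pools 4 and 5 was several times the highest of pools 1 to 3, and pool 5 was the higher of the pair. JUND, a JUN paralogue present in most resting cells, stood at 81.2, 77.7 and 76.9 FPKM in pools 1 to 3 and at 189 and 250 in pools 4 and 5. FOSB, a FOS paralogue, was close to absent in pools 1 to 3 (0.089, 0 and 0 FPKM) and reached 1.62 and 3.54 in pools 4 and 5. MAFF, a small MAF protein that dimerises with AP-1 family members, stood at 18.5, 16.5 and 15.6 FPKM and at 24.5 and 29.0. All 5 were set apart higher, but FOS and JUN chose the pools, and FOSB passed the filter only through pools 4 and 5. Of the other 4 genes of the list, JUND and MAFF were set apart higher and none was lower. The remaining 2 overlapped between the groups: ATF3, a stress-induced ATF family member, had 3.15, 3.35 and 4.56 FPKM in pools 1 to 3 and 4.24 and 6.52 in pools 4 and 5, and MAFK ran from 10.99 to 17.00 and stood at 16.2 and 18.1. As in every value from these explants, more cells with the RNA and more RNA per cell cannot be told apart.

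**Figure D2:**
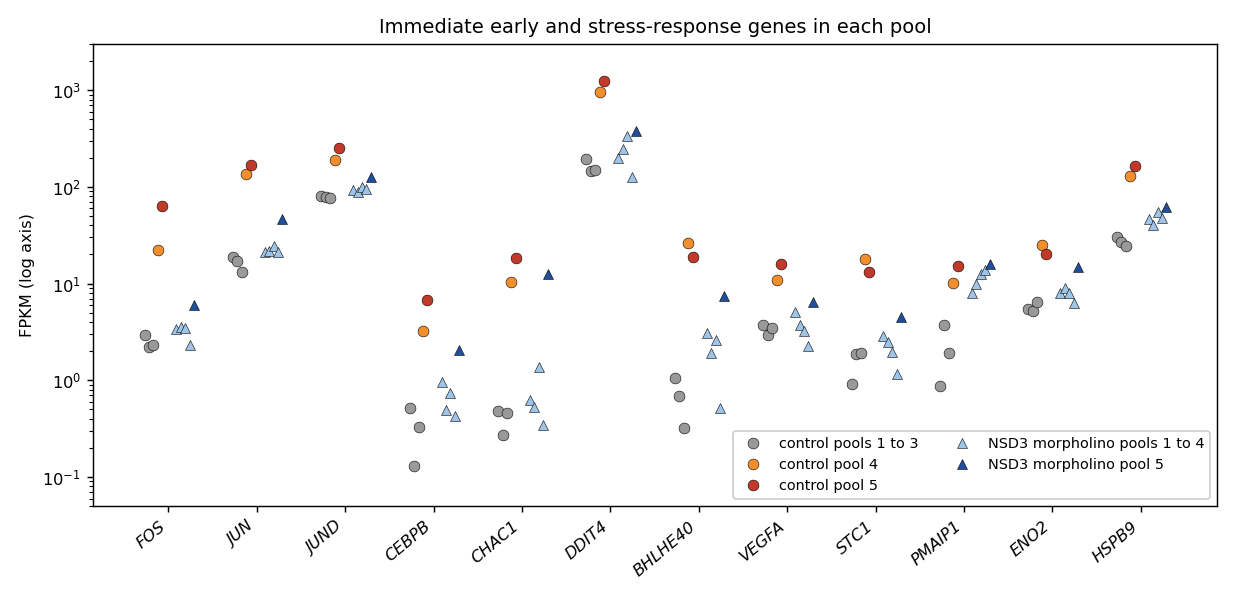
FPKM on a log axis of 12 genes in each pool, with control pools as circles (pools 1 to 3 grey, 4 orange, 5 red) and NSD3 morpholino pools as triangles (1 to 4 pale blue, 5 dark blue). Control pools 4 and 5 lie above pools 1 to 3 in every gene shown, and NSD3 morpholino pool 5 is the highest NSD3 morpholino pool in each. The 12 genes were picked for display from those set apart higher. In other set-apart early genes, FOSB, KLF4, EGR1, EGR2 and CYR61, NSD3 morpholino pool 5 was not the highest.

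Other early transcription factors were split. CEBPB, a stress and inflammation response factor, stood at 0.515, 0.131 and 0.333 FPKM in pools 1 to 3, 3.27 in pool 4 and 6.71 in pool 5, a ratio of 15.3. KLF4, a zinc finger factor of epithelia and of pluripotent cells, stood at 1.19, 1.69 and 1.32 FPKM and at 3.87 and 8.42, a ratio of 4.39. EGR1, the classical serum response gene, reached no more than 1.85 and 2.26 FPKM in pools 4 and 5, against 1.17, 0.947 and 0.894 in pools 1 to 3. Its ratio of means was 2.05, against 17.3 for FOS. EGR2, which also marks hindbrain segments, had 1.798, 0.931 and 0.950 FPKM in pools 1 to 3 and 2.07 and 4.30 in pools 4 and 5. SRF, the factor that drives many early genes, stood at 43.7, 40.6 and 41.1 FPKM and at 48.9 and 49.0. KLF10 (35.5 to 40.7 FPKM in pools 1 to 3, 45.3 and 45.3 in pools 4 and 5) and CSRNP1 (59.7 to 71.3, then 73.2 and 91.2) were also above without overlap. KLF6 and MYC overlapped between the groups, with MYC at 22.5, 26.1 and 14.5 FPKM in pools 1 to 3 and 18.0 and 25.0 in pools 4 and 5. In all, 7 of 9 genes of the EGR, KLF and NR4A list lay above pools 1 to 3 in both pools, 4 of them set apart. CEBPB, counted here, averaged 0.33 FPKM in pools 1 to 3. It passed the filter only through pools 4 and 5 and had to be higher. A further 7 genes of the list did not pass the filter, among them NR4A1, NR4A2, NR4A3 and EGR3, whose highest control values were 0.173, 0.805, 0.652 and 0.787 FPKM.

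The regulators that follow early gene induction were mostly higher too. Of 25 such genes, 16 lay above pools 1 to 3 in both pools and 1 below, ERRFI1, an inhibitor of the EGF receptor. The 10 set apart were all higher. DUSP1, a phosphatase that turns off stress kinases, stood at 7.59, 7.61 and 6.34 FPKM in pools 1 to 3, 18.6 in pool 4 and 24.6 in pool 5. CYR61, a secreted matricellular protein, stood at 5.86, 5.41 and 6.01 FPKM and at 12.9 and 17.9. IER5, a nuclear early response protein, stood at 45.2, 47.2 and 42.3 FPKM and at 79.3 and 108. SOCS3, an inhibitor of cytokine signalling, was low throughout (1.08, 0.429 and 1.02 FPKM, then 2.38 and 1.82) and passed the filter only through pools 4 and 5. None of these named genes overlapped between pools 4 and 5 and pools 1 to 3, while 8 of the 25 did.

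Genes of the hypoxia response were mostly higher. BHLHE40, a basic helix-loop-helix repressor and HIF target, stood at 1.06, 0.694 and 0.322 FPKM in pools 1 to 3, 26.0 in pool 4 and 18.9 in pool 5, a ratio of 32.5. DDIT4, an inhibitor of mTORC1 that low oxygen and other stresses induce, stood at 195, 144 and 151 FPKM and at 952 and 1238, a ratio of 6.70. VEGFA, the main growth factor for blood vessels, stood at 3.72, 2.94 and 3.44 FPKM and at 10.8 and 15.8, a ratio of 3.96. Each of the 3 genes was higher in pools 4 and 5 without overlap, with BHLHE40 higher in pool 4 and the other 2 in pool 5. STC2, a secreted glycoprotein, stood at 25.1, 21.5 and 24.4 FPKM and at 55.1 and 79.3. Its relative STC1, which is not in the hypoxia list, stood at 0.923, 1.87 and 1.91 FPKM and at 17.9 and 13.2, a ratio of 9.91. Of 22 hypoxia genes, 14 lay above pools 1 to 3 in both pools and 5 below, with 10 set apart higher and 1 lower. BHLHE40, counted here, averaged 0.69 FPKM in pools 1 to 3 and passed the filter only through pools 4 and 5. The median log2 difference was 0.52. The list was not of 1 direction: HIF1A itself, the oxygen-regulated subunit, stood at 62.3, 64.9 and 74.7 FPKM in pools 1 to 3 and at 54.6 and 51.2 in pools 4 and 5. BNIP3 and BNIP3L, mitophagy receptors and HIF targets, and PDK1, a kinase that holds back pyruvate oxidation, were also lower, at ratios of 0.834, 0.818 and 0.748.

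Glycolysis genes were higher with the hypoxia list. Both pools lay above pools 1 to 3 in 13 of 16 genes and below in 1, with 5 set apart higher, and the median log2 difference was 0.40. ENO2, an enolase isoform of neurons, stood at 5.47, 5.16 and 6.43 FPKM in pools 1 to 3, 24.9 in pool 4 and 20.3 in pool 5. SLC16A3, a lactate exporter, stood at 58.0, 44.7 and 53.3 FPKM and at 105 and 126. LDHA, the lactate dehydrogenase subunit of anaerobic tissue, stood at 120, 90.4 and 131 FPKM and at 183 and 307. HK2, the hexokinase that HIF induces, stood at 24.0, 27.6 and 20.1 FPKM and at 47.5 and 46.5. All 4 were free of overlap. Transcripts of the mitochondrial genome lay the other way, with 11 of 13 below pools 1 to 3 in both pools, none set apart, and a median log2 difference of -0.33. Nuclear genes of respiration had no common direction, with 13 of 44 above and 13 below.

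Of the stress programmes, a few genes were far higher while several chaperones were lower and others were not. CHAC1, an ATF4 target that breaks down glutathione, stood at 0.485, 0.269 and 0.457 FPKM in pools 1 to 3, 10.3 in pool 4 and 18.5 in pool 5. Its ratio was 35.7. CHAC1, like BHLHE40, averaged under 1 FPKM in pools 1 to 3. Both genes thus passed the filter, and reached a mean of 5 FPKM, only through pools 4 and 5 and had to be higher. On the log2(FPKM + 0.5) scale BHLHE40 differed by 4.30 and CHAC1 by 4.00. SESN2, a leucine sensor upstream of mTORC1, stood at 3.507, 2.495 and 3.755 FPKM and at 8.65 and 8.43, and DDIT3, a stress-induced C/EBP factor, stood at 8.98, 11.3 and 12.3 and at 18.0 and 19.4. ATF4 itself, with 344, 418 and 347 FPKM in pools 1 to 3 and 369 and 509 in pools 4 and 5, overlapped between the groups. The endoplasmic reticulum chaperone HSP90B1 was lower, at 274, 255 and 265 FPKM in pools 1 to 3 and 170 and 159 in pools 4 and 5. HSPA5, the main chaperone of that compartment, had 499, 488 and 465 FPKM and then 411 and 399, while CALR, a calcium-binding chaperone there, overlapped at a ratio of 0.993. Of 17 genes of the unfolded protein response, 4 lay above pools 1 to 3 in both pools and 8 below, and the median log2 difference was -0.11. More members were therefore lower than higher, with CHAC1, SESN2 and DDIT3 the 3 set apart higher.

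Heat shock genes were divided in the same manner. HSPB9, a small heat shock protein gene, stood at 30.3, 26.7 and 24.3 FPKM in pools 1 to 3, 130 in pool 4 and 163 in pool 5, a ratio of 5.40. HSPH1, a nucleotide exchange factor for HSP70, stood at 17.7, 17.5 and 15.1 FPKM and at 8.58 and 6.54. DNAJA1, an HSP70 co-chaperone, stood at 94.6, 110 and 79.4 FPKM and at 54.5 and 44.4. CHORDC1, a partner of HSP90, was lower too, at 12.4, 11.6 and 14.8 FPKM and then 6.38 and 6.61. HSPA2, an HSP70 family member, was set apart higher, at 109, 136 and 106 FPKM and then 197 and 161. HSP90AB1, a constitutive HSP90, also lay above, at 617, 696 and 659 FPKM and then 726 and 815, and the HSP40 gene DNAJB1 overlapped. Over 20 genes, 5 lay above and 9 below, with 3 set apart higher and 4 lower, and the median log2 difference was -0.26.

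Of 20 p53 target genes, 10 lay above pools 1 to 3 in both pools and 3 below, with 6 set apart higher and 1 lower. PMAIP1, the BH3-only protein NOXA, stood at 0.867, 3.74 and 1.91 FPKM in pools 1 to 3, 10.1 in pool 4 and 15.1 in pool 5. GADD45A, a growth arrest gene that several stress pathways share, stood at 155, 140 and 163 FPKM and at 299 and 265. CDKN1A, the p21 cell cycle inhibitor, was low in all control pools, at 1.75, 2.27 and 1.92 FPKM and then 3.28 and 4.00, while the NSD3 morpholino pools ranged from 20.8 to 32.0. MDM2, the p53 ubiquitin ligase, overlapped among control pools (34.9 to 39.3 FPKM in pools 1 to 3, 33.1 and 36.2 in pools 4 and 5). So CDKN1A in control pools 4 and 5 was far nearer to the other control pools than to the NSD3 morpholino pools, where both genes were higher than in any control pool. PMAIP1 went the other way. It ranged from 7.96 to 16.0 FPKM in the NSD3 morpholino pools, a range that holds control pools 4 and 5.

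The remaining genes among the 12 highest ratios carry a mixture of roles. SLC38A3, a glutamine transporter, stood at 3.15, 1.88 and 1.69 FPKM in pools 1 to 3 and at 19.0 and 17.2 in pools 4 and 5. TSC22D4, a leucine zipper protein, stood at 2.64, 1.89 and 2.93 FPKM and at 15.2 and 18.3. STMN4, a neural member of the microtubule-binding stathmins, stood at 3.09, 2.86 and 2.07 FPKM and at 15.9 and 13.9. In all 3 the groups were several-fold apart and pools 4 and 5 were close to each other. SLC38A3, TSC22D4, STMN4, FOS, STC1, PMAIP1 and gga-mir-7441 averaged under 5 FPKM in pools 1 to 3. They entered this ranking, which asks for a mean of at least 5 FPKM, only through pools 4 and 5. The list also held the microRNA gene gga-mir-7441, at 1.36, 2.77 and 1.41 FPKM and at 13.1 and 9.47, whose short RNA the poly(A) method does not measure and whose value is uncertain.

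Genes of the neural plate border were higher almost throughout. Both pools lay above pools 1 to 3 in 17 of 18 genes, 7 were set apart higher, none was lower, and the median log2 difference was 0.50. MSX1, a BMP-induced homeobox factor of the border, stood at 253, 264 and 255 FPKM in pools 1 to 3, 456 in pool 4 and 472 in pool 5. PAX3, a paired box factor upstream of crest specification, stood at 10.4, 9.69 and 7.66 FPKM and at 15.0 and 21.4. GATA2, a factor of the border and the surface ectoderm, stood at 3.92, 5.74 and 4.67 FPKM and at 11.8 and 8.01. PRDM1, a zinc finger repressor of the border, stood at 12.6, 17.9 and 16.0 FPKM and at 30.8 and 25.8, and the bHLH repressor HES4 stood at 36.5, 42.7 and 30.7 and at 69.3 and 61.4. These 5 had no overlap and ratios of 1.79 to 2.07. BMP4, the ligand that patterns the border, was the smallest of the set-apart differences, with a ratio of 1.51. PAX7, which marks the premigratory crest in chick, was almost level, at 26.0, 25.7 and 25.4 FPKM in pools 1 to 3 and 27.1 and 26.9 in pools 4 and 5. TFAP2A and ZIC2 lay above at ratios of 1.16 and 1.42. ZIC1, with 15.1, 20.6 and 17.7 FPKM and then 19.5 and 16.7, was the gene that overlapped.

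Among genes of crest specification several were high in pool 5 and not in pool 4. Of 27 genes, 6 lay above pools 1 to 3 in both pools and 3 lay below, with 3 set apart higher and 1 lower. Of all genes, 26.6% lay above and 27.6% below, so this list held no excess of genes above and a smaller share below. The median log2 difference was 0.21, and 21 of the 27 differences were positive. FOXD3, an early crest specifier, stood at 347, 332 and 291 FPKM in pools 1 to 3, 332 in pool 4 and 731 in pool 5. SOX10, which marks the crest at delamination, stood at 14.8, 9.22 and 8.64 FPKM, 13.5 in pool 4 and 32.2 in pool 5. ETS1, a factor of the cranial crest, stood at 15.5, 11.5 and 12.7 FPKM, 15.3 in pool 4 and 28.4 in pool 5. In all 3 genes pool 4 lay within pools 1 to 3 and pool 5 alone was high. TFAP2B followed the same order, with 52.95 to 58.53 FPKM in pools 1 to 3, 56.4 in pool 4 and 81.9 in pool 5. SOX9, a specifier of the premigratory crest, had the same order by a small margin, with 47.6, 62.7 and 36.9 FPKM, then 58.1 and 65.3. SNAI2, another specifier, did not, with 261, 334 and 233 FPKM, then 212 and 300. The 3 genes set apart higher were ID4 (17.9 to 18.9 FPKM, then 28.7 and 54.1), ID3 (77.7 to 111, then 154 and 199), both BMP-induced inhibitors of bHLH factors, and TFAP2E (4.07 to 4.87, then 8.45 and 7.90). ALX1, a homeobox factor of cranial mesenchyme, was the 1 set apart lower, at 2.30, 2.74 and 2.86 FPKM and then 1.58 and 1.17.

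**Figure D3:**
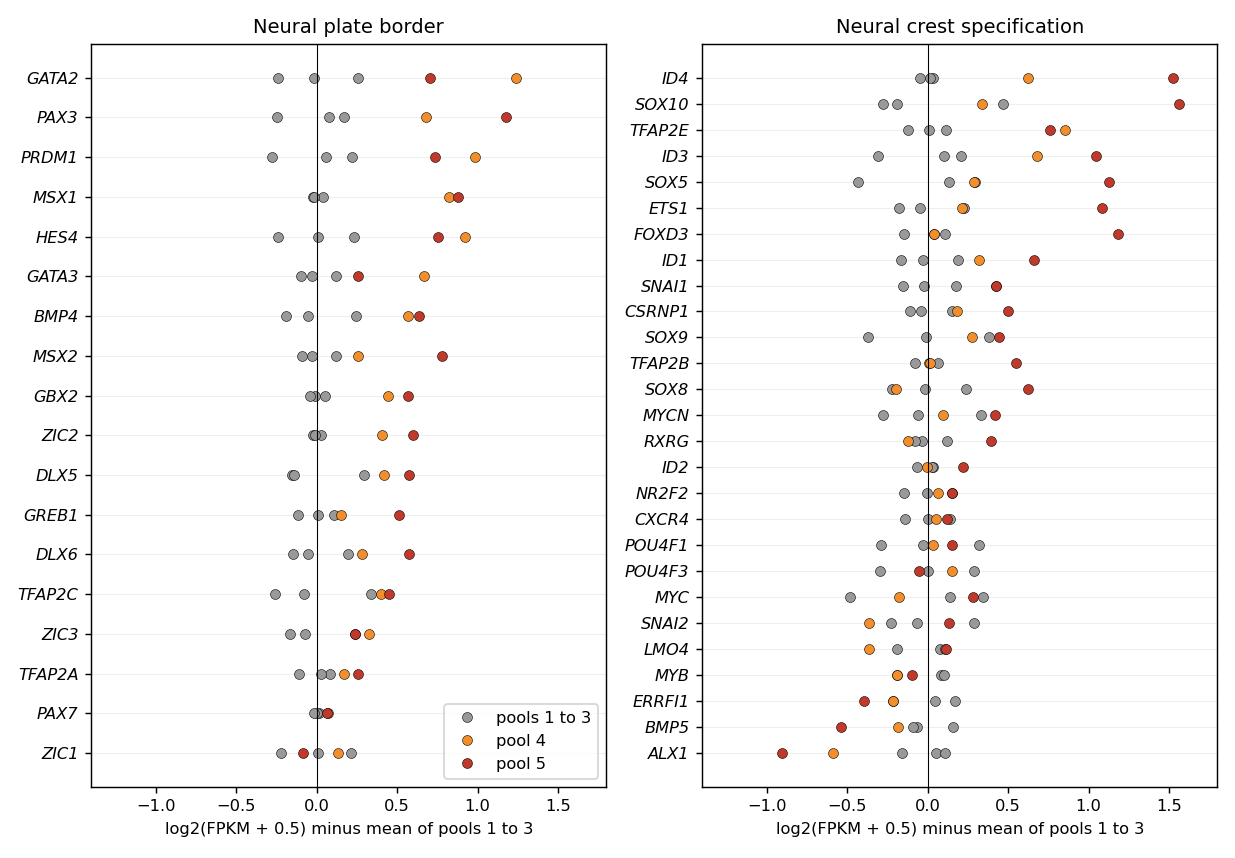
Log2(FPKM + 0.5) of each gene of the neural plate border list (left) and the neural crest specification list (right) in control pools 1 to 3 (grey), 4 (orange) and 5 (red), relative to the mean of pools 1 to 3 and ordered by the ratio of means. All border genes but ZIC1 are higher in both pools 4 and 5, PAX7 by little, while FOXD3, SOX10, ETS1 and TFAP2B are high in pool 5 alone.

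Pool 5 exceeded pool 4 by at least 1.5-fold in 439 genes (3.67%) and was lower by as much in 564 (4.71%). Among crest specification genes it was higher in 6 of 27 and lower in none, the 6 being FOXD3, SOX10, ETS1, SOX5, SOX8 and ID4. The same held in 7 of 17 Notch pathway genes in 6 of 25 neural progenitor genes, in 6 of 18 forebrain and eye genes and in 6 of 24 midbrain and hindbrain genes, with none lower in these lists. In the list of crest EMT and migration, the steps by which crest cells leave the folds, it held in 2 of 38. Of those 38 genes 8 lay above pools 1 to 3 in both pools and 9 below, with a median log2 difference of -0.02. Neither count exceeded the share of all genes, 26.6% above and 27.6% below. HES1, a Notch-driven repressor that keeps progenitors undifferentiated, stood at 55.4, 49.2 and 41.8 FPKM in pools 1 to 3, 54.3 in pool 4 and 119 in pool 5. HES5, a second Notch target, stood at 27.0, 14.6 and 11.2 FPKM, 17.8 and 41.9. FGF8, the signal of the midbrain-hindbrain organiser and forebrain margin, stood at 5.46, 5.67 and 4.00 FPKM, 6.38 and 15.5. Thus pool 5 was high in these 3 signalling genes, whereas pool 4 was within pools 1 to 3 for HES1 and HES5 and just above them for FGF8. In the hypoxia list no gene differed by 1.5-fold between pools 4 and 5 in either direction.

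Neural progenitor genes and midbrain and hindbrain genes were often higher in both pools. Forebrain and eye genes were near the 26.6% of all genes that lay above. OLIG2, a bHLH factor of ventral progenitors, stood at 9.92, 15.2 and 7.93 FPKM in pools 1 to 3, 35.7 in pool 4 and 45.7 in pool 5, a ratio of 3.70. The pan-neural factors SOX2 and SOX3 lay above at ratios of 1.26 and 1.34. Of 25 neural progenitor genes, 14 lay above in both pools and 1 below, with 7 set apart higher and a median log2 difference of 0.37. Of 24 midbrain and hindbrain genes, 15 lay above and none below, with 8 set apart higher and a median of 0.35. PAX2, a midbrain-hindbrain boundary factor, stood at 12.21, 10.99 and 8.696 FPKM and at 17.2 and 28.3. HOXA2, which patterns the hindbrain and its crest, stood at 3.73, 1.26 and 1.14 FPKM and at 6.22 and 8.44. Both were free of overlap, as was HOXB1, a gene of the hindbrain, at a ratio of 1.87. Of 18 forebrain and eye genes 5 lay above and 1 below, and the median was 0.09. RAX, the eye field factor, differed between pools 4 and 5, at 15.5 and 36.3 FPKM, around 18.8 to 25.2 in pools 1 to 3.

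Signalling pathways that act on the folds were higher with the border and neural genes. The lists share members, so their counts are not separate observations. HES6, for example, is both a Notch and a neural progenitor gene, and WNT1, FGF8 and PAX2 each sit in several neural or placode lists. Of 17 Notch genes, 11 lay above in both pools, 9 were set apart higher, none lay below, and the median log2 difference was 0.61. HEYL, a Notch target repressor, stood at 0.940, 0.511 and 0.660 FPKM in pools 1 to 3, 2.25 in pool 4 and 4.23 in pool 5. It passed the filter only through pools 4 and 5 and had to be higher. HES6, a bHLH factor of early neurons, stood at 30.4, 26.6 and 31.3 FPKM and at 43.7 and 67.2. Of 20 BMP genes, several of which are also border genes, 15 lay above and none below, with 7 set apart higher and a median of 0.46. Of 22 WNT genes, 11 lay above and 1 below, with 4 set apart higher. SP5, a direct WNT target, stood at 68.8, 104 and 75.2 FPKM and at 146 and 138, and DACT2, a WNT and TGF-beta modulator, stood at 84.1, 87.1 and 78.1 and at 125 and 136. CYP26A1, which degrades retinoic acid, was high in pool 4 (256 FPKM) and within the range of pools 1 to 3 (98.4 to 134) in pool 5 (130).

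**Figure D4:**
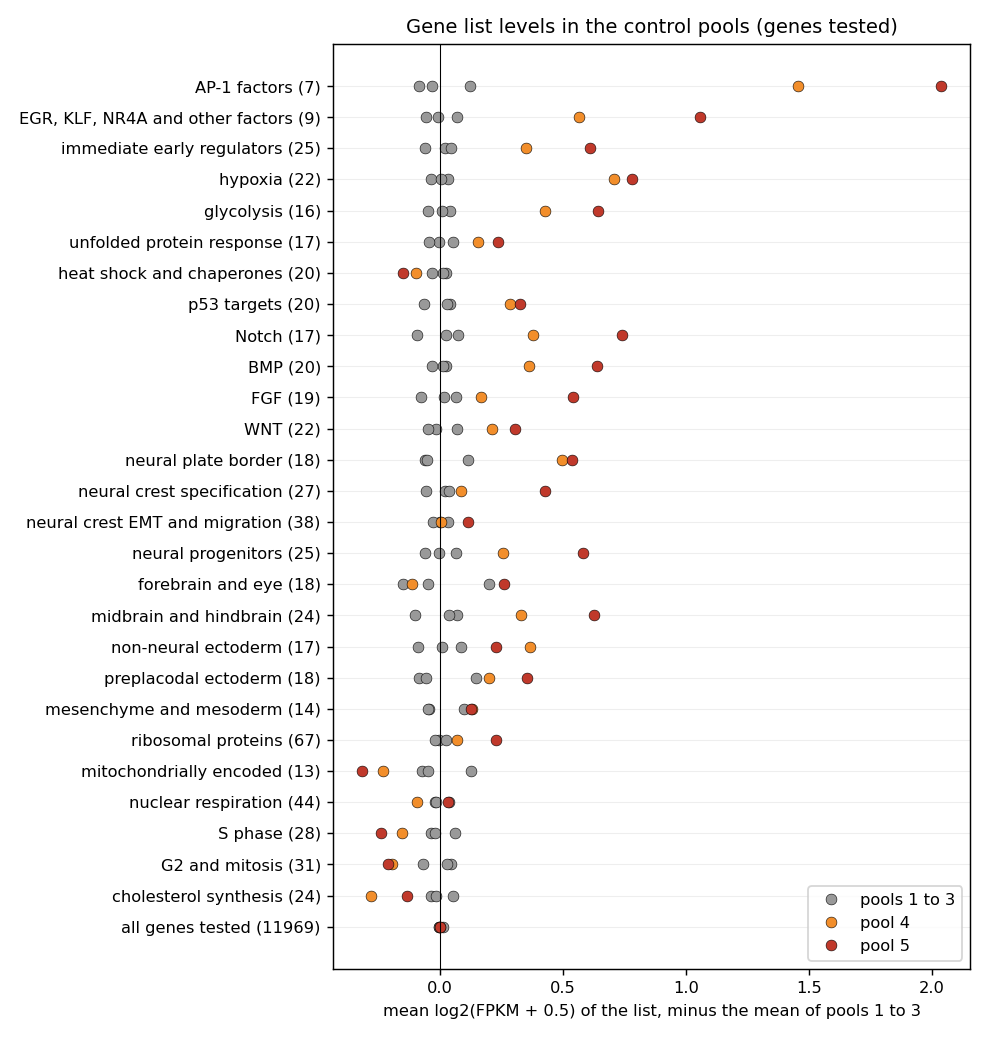
Mean log2(FPKM + 0.5) of each gene list in control pools 1 to 3 (grey), 4 (orange) and 5 (red), minus the mean of pools 1 to 3, with the number of genes in brackets. The AP-1 list stands at 1.45 in pool 4 and 2.04 in pool 5, and crest specification stands at 0.08 in pool 4 and 0.43 in pool 5. The AP-1 level holds FOS and JUN, which chose the pools, and FOSB, which passed the filter only through them. It was therefore bound to be high and is not comparable with the other lists.

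Markers of neighbouring tissues were checked in the same pools. Of 17 genes of the non-neural ectoderm, 9 lay above pools 1 to 3 in both pools and 1 below, with 4 set apart higher, among them OVOL2, an epithelial repressor, at 2.28, 1.88 and 1.69 FPKM and then 4.07 and 2.92. Of 18 preplacodal genes 12 lay above and 1 below, with 4 set apart higher. FOXI3, an otic and epibranchial factor, stood at 10.4, 14.9 and 10.1 FPKM and then at 25.5 and 15.6. Over all genes, 26.6% lay above and 27.6% below. Surface and placode markers were thus often higher along with border markers. GATA2 counts in both the border and the surface list, so these lists are not separate observations. Of 37 mesenchyme and mesoderm genes in the file, 23 were below the filter, and of the 14 described 4 lay above and 1 below, with a median log2 difference of 0.02. Of 20 endoderm genes 16 were below the filter, and of 25 blood and vessel genes 18 were. Of the 7 blood and vessel genes described, 3 were set apart higher and 1 lower, with a median log2 difference of 0.13. The 3 were the vessel factors SOX18 and SOX7 and the receptor FLT4, at ratios of 2.46, 1.95 and 1.79, and the 1 was PECAM1, an endothelial adhesion molecule, at 7.96, 13.1 and 9.45 FPKM and then 6.85 and 4.97. HINTW, a gene of the female-specific W chromosome, stood at 290, 90.2, 284, 293 and 270 FPKM in pools 1 to 5. It marked pool 2, not pools 4 and 5, as the pool with the lowest W-linked RNA. The part of tissue makeup in the differences above was not tested.

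Many genes of G2 and mitosis were lower, and fewer of S phase and sterol synthesis, against 27.6% of all genes below. Of 31 genes of G2 and mitosis, 18 lay below pools 1 to 3 in both pools and 2 above, with 5 set apart lower and a median log2 difference of -0.21. NDC80, a kinetochore protein, stood at 30.7, 27.8 and 35.8 FPKM in pools 1 to 3, 20.05 in pool 4 and 17.9 in pool 5. Its 5 values had no overlap between the groups. Of 28 S phase genes 13 lay below and 2 above, with 3 set apart lower and a median of -0.10. INSIG1, a sterol sensor partner, stood at 30.5, 30.1 and 38.8 FPKM and at 17.1 and 18.6, and 10 of 24 cholesterol genes lay below with 3 above, 5 of them set apart lower, and a median of -0.14. Ribosomal protein genes differed by little but in 1 direction, with 43 of 67 above and 1 below, none set apart, and a median of 0.18.

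Among the 12 lowest ratios, 9 were microRNA or small nucleolar RNA genes, whose poly(A) values are uncertain. Of 221 such genes described, 39 (17.6%) were set apart lower and 19 higher. Over all genes, 7.19% were set apart lower and 6.55% higher, so the excess of small RNA genes lay mainly on the lower side. The protein-coding genes among the 12 were GMFB, MRPS18C and COMMD10. GMFB, a glia maturation factor that acts on actin branching, stood at 13.9, 10.8 and 13.8 FPKM in pools 1 to 3, 4.44 in pool 4 and 3.60 in pool 5. MRPS18C, a mitochondrial ribosome protein, stood at 14.3, 11.4 and 20.2 FPKM and at 5.25 and 4.78. COMMD10, of a family that acts in endosomal sorting, stood at 7.08, 7.56 and 11.7 FPKM and at 3.11 and 2.64. These 3 were lower without overlap, with pools 4 and 5 close to each other. GMFB and COMMD10 averaged under 5 FPKM in pools 4 and 5 and entered this ranking only through pools 1 to 3.

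The authors' deposited table classes 68 of its 674 genes as higher in premigratory neural crest, 30 as lower and 576 as unchanged, from another data set. Of the 56 genes of the first class described here, 18 lay above pools 1 to 3 in both pools and 4 below, with 5 set apart higher and a median log2 difference of 0.13. Of 25 in the second class in the authors' deposited table, 4 lay above and 6 below. Of 517 described in the unchanged class, 152 lay above and 141 below, with 36 set apart higher and a median of 0.02. Over all genes described here, 26.6% lay above, 27.6% lay below and 6.55% were set apart higher. The first class stood close to the shares above and set apart higher, and held a smaller share below. The second class held a smaller share above and stood close to the share below. All genes of that table were chosen by the authors in a comparison that used these control pools, so the counts are no independent evidence.

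The NSD3 morpholino pools were not used to pick pools 4 and 5, and number 5 of them was often nearest to the pair. NSD3 morpholino pool 5 was the highest of its group in 21% of all genes and the lowest in 22.7%. Among the 784 genes set apart higher in control pools 4 and 5 it was the highest in 355 (45.3%), while pools 1 to 4 were the highest in 10.2, 10.3, 25.9 and 8.04%. Among the 860 genes set apart lower it was the lowest in 449 (52.2%), and NSD3 morpholino pool 1 was the highest in 54.8%. No test was made of these shares, since pool 5 was singled out after its values were seen. CHAC1 stood at 0.620, 0.526, 1.36, 0.344 and 12.6 FPKM in NSD3 morpholino pools 1 to 5. JUN had 46.2 FPKM in pool 5, against 21.1 to 24.2 in pools 1 to 4, and FOS had 6.05 against 2.30 to 3.565. In 10 of the 12 genes with the highest ratios, all but CHAC1 and PMAIP1, every NSD3 morpholino pool lay below control pools 4 and 5. In all 12, NSD3 morpholino pool 5 was the highest of the 5. The crest genes FOXD3 and SOX10 did not share this, as NSD3 morpholino pool 5 (216 and 7.62 FPKM) lay within the range of the other 4 pools. Over 27 crest specification genes it was the highest in 4 and the lowest in 12. These counts were 1 and 7 for 18 border genes, and 2 and 13 for 18 preplacodal genes. They were 1 and 8 for 24 midbrain and hindbrain genes. The hypoxia list had 7 and 1 of 22, the AP-1 list 4 and 0 of 7, and the early regulators 7 and 6 of 25.

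**Figure D5:**
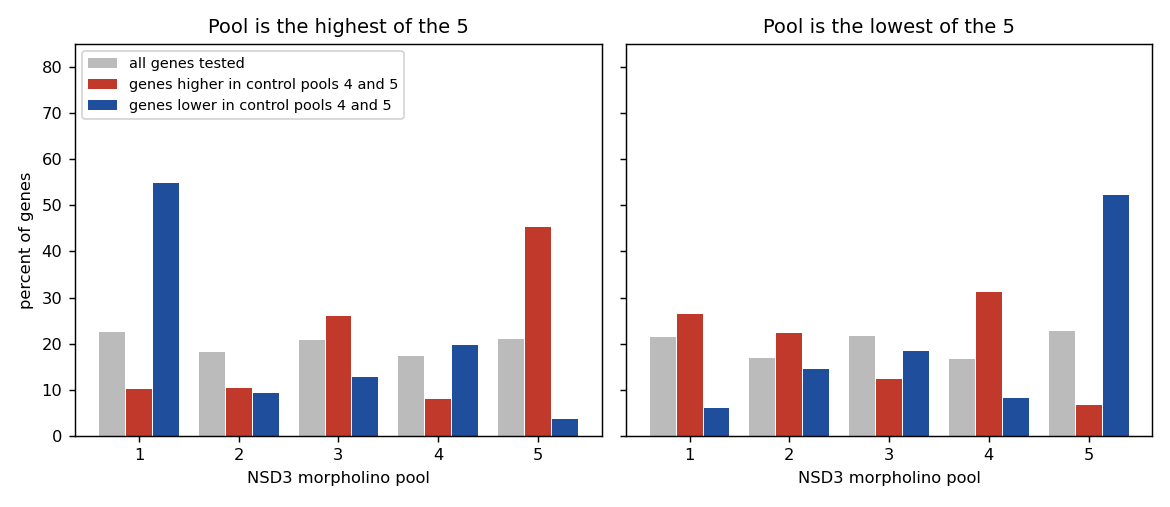
Percent of genes in which each NSD3 morpholino pool is the highest (left) or lowest (right) of the 5, for all 11969 genes (grey), the 784 genes set apart higher in control pools 4 and 5 (red) and the 860 set apart lower (blue). Pool 5 is the highest in 45.3% of the red and the lowest in 52.2% of the blue genes.

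Whether the high control pools change the study's own comparison was read from limma fits with and without them, which share control pools 1 to 3 and all NSD3 morpholino pools. With all pools, 179 genes (1.5%) were called higher and 122 (1.02%) lower after the NSD3 morpholino at an adjusted p under 0.05. Leaving out any 1 pool gave 69 to 211 higher and 32 to 151 lower, with the lowest counts without NSD3 morpholino pool 2. Without control pools 4 and 5 together it was 202 (1.7%) and 145 (1.22%). Without control pools 1 to 3, so that pools 4 and 5 were the only controls, it was 1530 (12.8%) and 1181 (9.89%). That pair was picked after its values had been seen, so these last counts are a description and do not measure the effect of the NSD3 morpholino. Of genes set apart higher, 752 were tested with all pools, with 10 called higher and 1 lower. Without pools 4 and 5, 721 were tested, with 26 called higher and 0 lower by limma, and 12 were lower at an unadjusted p under 0.05. Of genes set apart lower, 846 were tested with 4 called higher and 1 lower, and without the pools 852 were tested with 2 higher and 36 lower. The choice of genes by these pools fixes part of that shift, so the counts describe what the pools contribute.

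FOS had a log2 fold change of -1.01 after the NSD3 morpholino with all pools (limma, adjusted p = 0.543) and of 0.46 without control pools 4 and 5 (limma, adjusted p = 0.287). For JUN the values were -0.63 (limma, adjusted p = 0.673) and 0.65 (limma, adjusted p = 0.157). With pools 4 and 5 as the only controls both were called lower, FOS at -3.22 (limma, adjusted p = 0.0015) and JUN at -2.55 (limma, adjusted p = 0.0012). Since the pair was picked for high FOS and JUN, these shifts follow from the choice and are no result about the morpholino. PMAIP1 was not called with all pools (1.38, limma, adjusted p = 0.215) and rose without the pair (2.35, limma, adjusted p = 0.0043). HSPB9 stood at -0.10 (limma, adjusted p = 0.948) with all pools and rose by 0.87 (limma, adjusted p = 0.0057) without the pair. With the pair as the only controls HSPB9 was called the other way, at -1.54 (limma, adjusted p = 0.00084). DACT2 changed from 0.34 (limma, adjusted p = 0.283) to a called rise of 0.60 (limma, adjusted p = 0.0134). PMAIP1, HSPB9 and DACT2 were named for high values in the pair. Their shifts between the fits thus follow at least in part from the choice and are not read here as a result about the morpholino. FOXD3 stood at -0.71 (limma, adjusted p = 0.133) with all pools and -0.47 (limma, adjusted p = 0.131) without the pair. It was called lower with the pair as the only controls (-1.08, limma, adjusted p = 0.023). Its direction was the same in these 3 fits. Its call came only from the fit with the pair alone, which was picked after the values had been seen.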

How the data were processed

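Poly(A) RNA of 10 pools of chick neural folds was profiled, grouped and numbered by the sample titles. The genome build GRCg6a (galGal6) and the programs STAR 2.5.3a, Trimmomatic 0.32 and DESeq2 1.28.1 are named per the submitters' processing notes. On what each program did, how fragments were counted, the annotation and any use of strand, nothing is given in the sources used here. All levels come from the FPKM values that the authors deposited. The authors' deposited table of 674 genes with log2 values was used for its neural crest classes alone. No read totals were used, so the depth behind a value is known only as relative depth.

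Genes averaging 1 FPKM or more in the 5 control pools were described by the ratio of mean FPKM and by the difference of mean log2(FPKM + 0.5), which understates changes of low genes. Control pools 4 and 5 against 1 to 3 was not tested. The comparison of NSD3 morpholino with control used limma 3.58.1 in R 4.3.3 with a mean-variance trend on log2(FPKM + 0.5), two-sided, for genes averaging 1 FPKM or more in the pools fitted. Benjamini-Hochberg adjustment covered every gene tested, with a threshold of 0.05, and the fit was tested on simulated data. Python 3.11.15, pandas 2.3.3, numpy 2.4.6 and matplotlib 3.10.9 were used.

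The pools, the members and the 37 gene lists were chosen with earlier results of these data known. The genes named are FOS, JUN and NSD3, the early factors that pass the filter, the 12 highest and 12 lowest ratios among set-apart genes with a mean of at least 5 FPKM, up to 4 members of each list with the largest log2 difference, and any border or crest specification gene. Others, among them HIF1A, BNIP3, BNIP3L, PDK1, ATF4, HSPA5, CALR, HSPA2, HSP90AB1, DNAJB1, CDKN1A, MDM2, SOX2, SOX3, HES5, RAX and the genes at the threshold, were named after their values were seen. Alternatives covered the filter, the scaling, the fold, the pseudocount, each pool left out and the replicate number as a block. Some genes that the rule takes were left out of the text.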

Additional observations from a re-analysis of the deposited data

Results flagged for a closer look

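The level of 113 genes named above was checked over the 5 control pools, and that of the 19 whose NSD3 morpholino values the text uses also over those 5 pools. A pool was singled out when its gap to the nearest other pool exceeded 0.71 of the range of the 5, and 13 of 132 groups met this. Chance gives such a gap in about 1 in 20 groups of genes not chosen by their values. Many genes here were named for extreme values in these same pools, so the counts cannot be set against that rate. Control pool 5 was far above the other 4 in FOXD3 (731 FPKM), SOX10 (32.2), ETS1 (28.4), TFAP2B (81.9), HES1 (119) and FGF8 (15.5). The first 4 are crest genes, HES1 is a Notch target and FGF8 is a signal of brain organisers, and in all 6 control pool 4 was at or near pools 1 to 3. Control pool 4 was far above the rest in CYP26A1, with 256 FPKM, and in FLT4, with 5.75 FPKM. Control pool 2 was far below the rest in the W-linked gene HINTW, with 90.2 FPKM. NSD3 morpholino pool 5 was far above the other NSD3 morpholino pools in JUN (46.2 FPKM), CHAC1 (12.6), SLC38A3 (8.21) and TSC22D4 (7.83). All 4 of these are among the genes highest in control pools 4 and 5. The NSD3 morpholino pools were checked only for genes the text uses, many of them named for those ratios, so this follows in part from the choice.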

How the results depend on the processing

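The 784 higher and 860 lower genes became 1356 and 1376 with no filter, 353 and 595 with a mean of at least 5 FPKM, 835 and 778 when scaled to the same total, 233 and 168 at 2-fold, and 3182 and 3307 on non-overlap alone. Leaving out each control pool gave 808 to 1035 and 701 to 1216. Genes above pools 1 to 3 then numbered 4 to 6 for AP-1, 11 to 15 for Notch, 14 to 16 for hypoxia and 16 to 17 for the border. With a pool left out the non-overlap rule is easier to meet. These counts could therefore fall only through the filter or the fold, and they are a weak check. The AP-1 count also holds FOS and JUN, which chose the pools, so the AP-1 range is no check on that list. The FOXD3 log2 difference was 1.18 without pool 4 and 0.04 without pool 5.

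In the limma comparison of NSD3 morpholino with control, leaving out 1 pool gave 69 to 211 higher and 32 to 151 lower. Lower calls were 72, 61 and 58 without control pools 1, 2 and 4, and 70, 32, 67, 44 and 43 without NSD3 morpholino pools 1 to 5. Higher calls were 115 and 107 without control pools 1 and 4, and 69, 85, 81 and 93 without NSD3 morpholino pools 2 to 5. With control pools 4 and 5 as the only controls, higher and lower calls were 1530 and 1181. This is a description, since the pair was picked after its values had been seen. Scaling to the same total gave 125 higher and 173 lower. Without control pools 4 and 5, FOS (0.46), JUN (0.65) and HSPB9 (0.87) reversed, as did HSPB9 without pool 4 (0.23) or 5 (0.31), and PMAIP1 (-0.067) and DACT2 (-0.052) without pools 1 to 3. HSPB9 ranged from -0.37 to 0.31 with 1 pool left out. These genes were named for high values in control pools 4 and 5, so the reversals follow in part from that choice. Any other cause was not tested.

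Deviations of pools with the same number correlated at 0.214, -0.0305, -0.122, -0.0573 and 0.344 for numbers 1 to 5. The values were positive for numbers 1 and 5 and negative for 2 to 4, and 2 of 5 control pools correlated best with their own number. Correlations between different numbers are not given here, so these values do not settle whether pools were paired by number. With the replicate block 97 genes were higher and 62 lower.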
